A study of Homo sapiens with 15 samples.

Results

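The cytosolic chaperonin TRiC, also called CCT, is built from 8 subunits, and its 8 genes, TCP1, CCT2, CCT3, CCT4, CCT5, CCT6A, CCT7 and CCT8, were followed here across all doses of ZJ-101. They were picked by gene symbol as the subunits of this complex, with earlier results of these data known, and all 8 were found among the 59608 genes of the deposited table. ZJ-101 is a synthetic, simplified version of superstolide A, a compound from a marine sponge. The human line MDA-MB-231, derived from breast cancer, was grown as 2D cultures in dishes, treated for 6 h and harvested for poly-A RNA sequencing. The 5 groups were DMSO vehicle and 0.5, 5, 50 and 500 nM ZJ-101, each with 3 biological replicates, which gave 15 libraries. The 5 groups are cultures of this single line and carried no other named treatment, so they show nothing of other cell types or later times.

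TRiC folds newly made proteins inside a closed chamber, using ATP to drive the cycle. The complex is a pair of stacked rings, and each ring holds a single copy of every subunit, so that all the subunits are needed in equal amounts. Actin and tubulin are its best known clients, prefoldin hands it unfolded chains, and phosducin-like proteins act as its cofactors. Genes of many cytosolic chaperones carry heat-shock elements, inverted GAA repeats that are bound by heat-shock factors.

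The values are normalized counts, which are reads per gene divided by the size factor of each library. Libraries held between 12415519 and 15284762 reads on genes. A single subunit in a single library rested on between 3303 and 10387 reads. The replicates differed from each other by more than sampling noise, with a chi-square per degree of freedom between 2.04 and 16.5. The highest of these values belonged to pairs with 0.5 nM replicate 2, a library that stands apart from its group. The label was checked against marker genes. VIM and CD44, which mark mesenchymal breast cancer lines, ranged from 13400 to 18410 and from 9280 to 12290 normalized counts. The estrogen receptor gene ESR1 had a median of 0, and PTPRC, a marker of leukocytes, did not exceed 3.533. PECAM1, a marker of endothelium, ranged from 201 to 321.4, and the epithelial gene CDH1 from 107 to 206.3. Poly-A RNA of whole cultures was measured, so more RNA per cell and more cells with the RNA cannot be told apart.

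For all 8 subunits, the lowest 500 nM library lay above the highest DMSO library. By limma on log2(normalized count + 1), 7 of the 8 rose at 500 nM at an adjusted p under 0.05, and 0 fell. Over all 13561 genes tested, 7.69% rose by the same rule. The size of the change was modest and uneven, from a log2 fold change of 0.12 for CCT8 to 0.45 for TCP1. The median of the 8 was 0.23, while the median over all genes tested was 0.0027. The 8 normalized counts together came to 44603, 44428 and 43408 with DMSO and to 53147, 51884 and 52168 at 500 nM, a 1.19-fold higher mean.

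TCP1, the alpha subunit and the gene that gave the complex its name, had the widest change. Its normalized counts were 4929, 4777 and 4869 with DMSO, 5055, 5511 and 4919 at 0.5 nM and 5120, 5245 and 5049 at 5 nM. At 50 nM they were 6659, 5675 and 5951, and at 500 nM they were 6717, 6450 and 6728. The 50 and 500 nM libraries all lay above the DMSO, 0.5 and 5 nM libraries, and 50 nM replicate 1 lay within the 500 nM range. TCP1 rose by a log2 fold change of 0.32 (SE 0.05) at 50 nM, with an adjusted p of 5.2e-04 by limma. At 500 nM its log2 fold change was 0.45 (SE 0.05, limma adjusted p = 5.7e-06), a 36.5% increase. The gene lies on chromosome 6, at 159778498 to 159789703 on the minus strand of GRCh38.

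CCT6A, the zeta subunit, had the next widest change. It was nearly even across the DMSO libraries, at 5424, 5394 and 5419 normalized counts. The values were 5531, 5787 and 5347 at 0.5 nM and 5512, 5641 and 5196 at 5 nM, so that both groups straddled the DMSO level. They were 6383, 6263 and 6181 at 50 nM and 6930, 6803 and 6678 at 500 nM, without overlap between these groups or with any lower dose. CCT6A rose by a log2 fold change of 0.21 (SE 0.04, limma adjusted p = 0.0024) at 50 nM. At 500 nM it rose by 0.33 (SE 0.04, limma adjusted p = 9.8e-06).

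**Figure D1:**
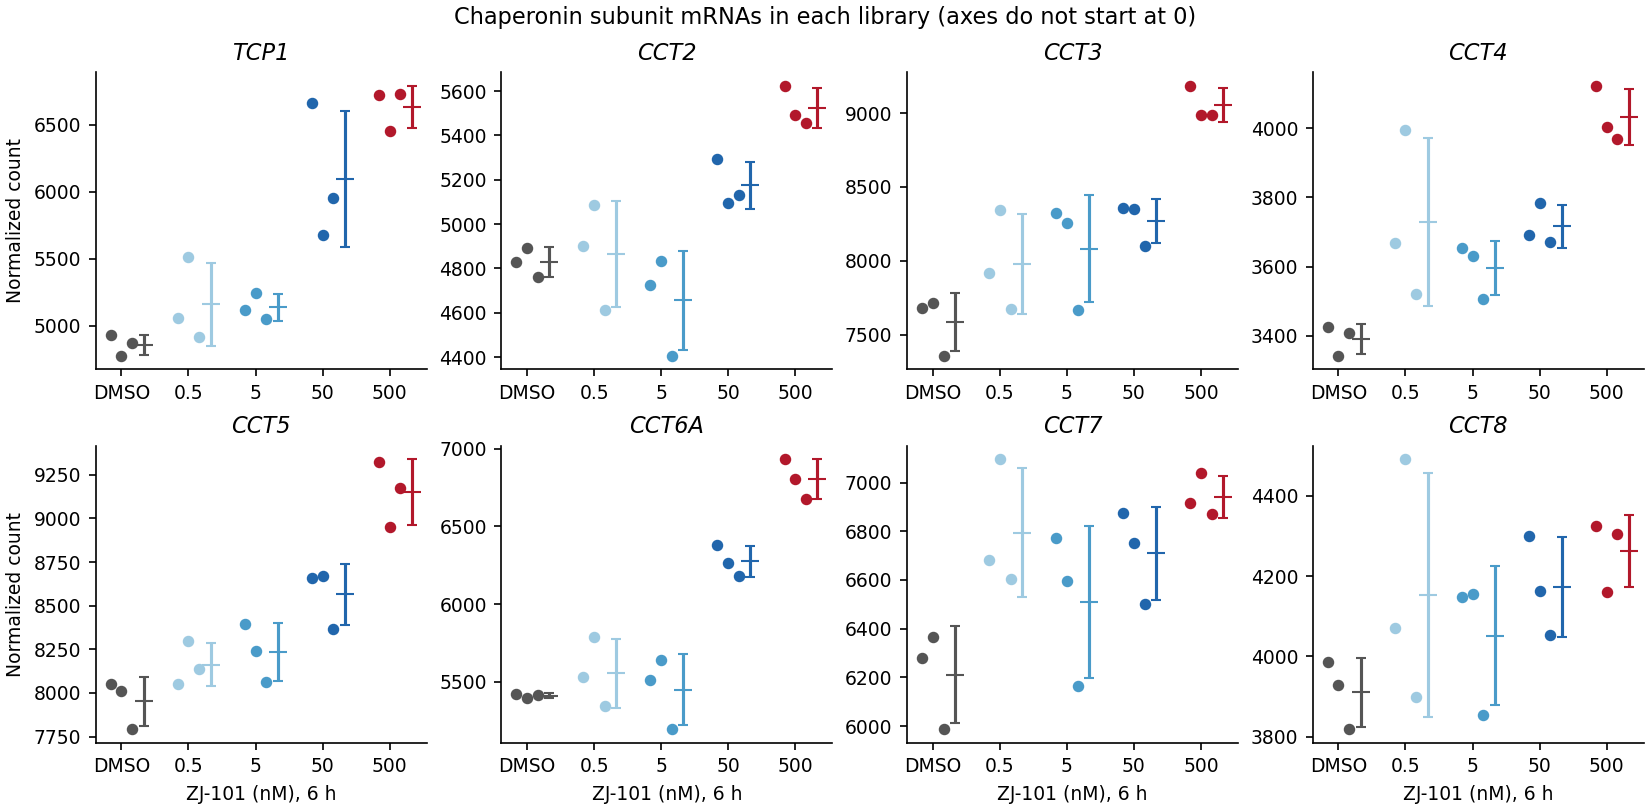
Normalized counts of the 8 subunit mRNAs (vertical axes, which do not start at 0) by ZJ-101 dose in nM after 6 h. Each point is a library, and the bar beside it is the mean with 1 SD over 3 replicates. The 500 nM libraries of every subunit lie above its DMSO libraries, and at 0.5 nM replicate 2 (the middle point) is the highest of its group for all 8.

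CCT3, the gamma subunit, had normalized counts of 7678, 7714 and 7356 with DMSO and 9186, 8987 and 8988 at 500 nM. Its log2 fold change at 500 nM was 0.26 (SE 0.04, limma adjusted p = 2.8e-04). At the doses between, its group means were 7978 ± 339, 8083 ± 361 and 8269 ± 148 (SD, n = 3) at 0.5, 5 and 50 nM. Every 500 nM library was thus above every library of the lower doses.

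CCT4, the delta subunit, went from 3424, 3341 and 3408 normalized counts with DMSO to 4124, 4004 and 3970 at 500 nM. Its log2 fold change was 0.25 (SE 0.04, limma adjusted p = 4.6e-04). Each of its 0.5 nM libraries, at 3668, 3995 and 3521, was also above the DMSO range. That difference of 0.13 did not pass the threshold (limma adjusted p = 0.15), although it passed without 0.5 nM replicate 3 (adjusted p = 0.043).

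CCT5, the epsilon subunit, and CCT2, the beta subunit, had nearly the same log2 fold change at 500 nM. CCT5 had normalized counts of 8052, 8013 and 7792 with DMSO and 9324, 8949 and 9174 at 500 nM, a log2 fold change of 0.20 (SE 0.04, limma adjusted p = 6.0e-04). CCT2 had 4831, 4893 and 4759 with DMSO and 5624, 5494 and 5455 at 500 nM, a log2 fold change of 0.19 (SE 0.04, limma adjusted p = 0.0039). CCT2 was the single subunit whose mean at 5 nM, 4656 ± 223 (SD, n = 3), was below that of DMSO, 4828 ± 67.1 (SD, n = 3). That difference was -0.05 on the log2 scale and did not pass the threshold.

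CCT7, the eta subunit, and CCT8, the theta subunit, changed least. CCT7 had normalized counts of 6279, 6367 and 5987 with DMSO and 6917, 7038 and 6870 at 500 nM. Its log2 fold change of 0.16 (SE 0.04) passed with a limma adjusted p of 0.015, but it no longer passed without DMSO replicate 3 (adjusted p = 0.084) or 500 nM replicate 2 (adjusted p = 0.061). CCT8 had 3987, 3928 and 3819 with DMSO and 4324, 4160 and 4305 at 500 nM. Its log2 fold change of 0.12, with a 95% interval from 0.02 to 0.23, did not pass (limma adjusted p = 0.096). For both genes 0.5 nM replicate 2 was the highest of all 15 libraries, with 7095 normalized counts of CCT7 and 4490 of CCT8. Without that library, which enters the 500 nM comparison through the shared estimate of the spread, CCT8 passed at 500 nM with an adjusted p of 0.023.

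The dose at which a change could be told from DMSO differed between the subunits. At 0.5 nM, 0 of 8 passed limma's test, where 0.251% of all genes were called higher, and 0 also passed by edgeR and by DESeq2. An unadjusted p under 0.05 was reached by 2 of 8 subunits and, in the higher direction, by 6.10% of all genes. At 5 nM, 0 of 8 passed by any of these tools, against 0.465% of all genes called higher by limma. There 1 of 8 subunits had an unadjusted p under 0.05, against 4.96% of all genes. At 50 nM, TCP1 and CCT6A passed by limma and edgeR, against 2.29% of all genes by limma. DESeq2 also called CCT5 (adjusted p = 0.038), and a fit of the DMSO and 50 nM libraries alone also called CCT4 (adjusted p = 0.038). The other 6 had log2 fold changes between 0.09 and 0.13 at 50 nM. Without 0.5 nM replicate 2, CCT3, CCT4 and CCT5 passed at 50 nM as well, with adjusted p of 0.034, 0.016 and 0.044. The 4 dose comparisons share the DMSO libraries, and the medians of the 8 subunits were 0.08, 0.06, 0.12 and 0.23 on the log2 scale from the lowest dose to the highest.

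Counts of subunits whose treated libraries all lay above all DMSO libraries gave a like order. This held for 3 of 8 at 0.5 nM, where it held for 7.43% of all genes, and for 3 of 8 at 5 nM, where it held for 10.5%. At 50 nM it held for 8 of 8, against 11.6% of all genes. It held again for 8 of 8 at 500 nM, against 18.9%.

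**Figure D2:**
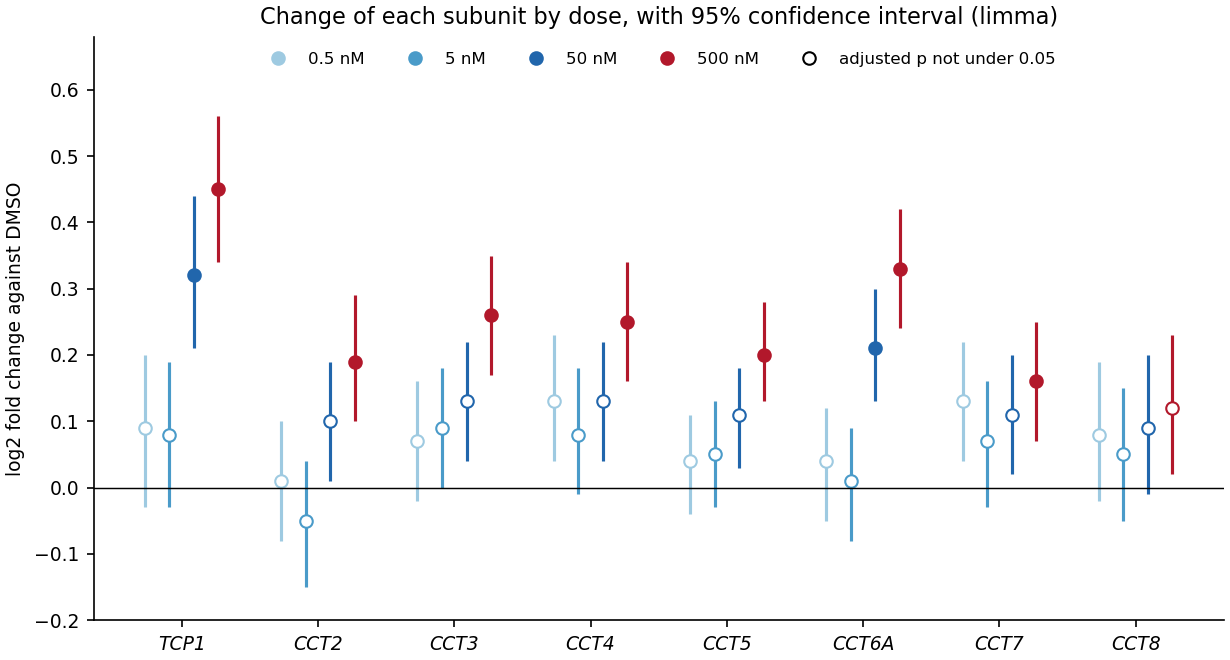
Log2 fold change against DMSO (vertical axis) of each subunit at 0.5, 5, 50 and 500 nM ZJ-101, with the 95% confidence interval from limma. Filled points have an adjusted p under 0.05. They are TCP1 and CCT6A at 50 nM and all subunits but CCT8 at 500 nM.

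Neighbouring doses were also compared with each other. Between 0.5 and 5 nM, 0 of 8 subunits passed by limma, edgeR or DESeq2, against 0.0295% of all genes called higher by limma. An unadjusted p under 0.05 was found for 0 of 8, against 3.82% of all genes. Between 5 and 50 nM, TCP1 rose by 0.24 (adjusted p = 0.0096) and CCT6A by 0.20 (adjusted p = 0.0049) on the log2 scale, and 2.62% of all genes rose. The TCP1 step lost its call without 50 nM replicate 1, at an adjusted p of 0.064. Between 50 and 500 nM, 0 of 8 passed by these tools, against 0.479% of all genes called higher by limma. At an unadjusted p under 0.05 there were 6 of 8, against 5.60% of all genes. In this last step, the 500 nM libraries of 5 subunits lay wholly above the 50 nM libraries, which held for 9.67% of all genes. TCP1 was not among those 5, because 50 nM replicate 1 overlapped the 500 nM range.

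A separate limma fit tested a linear trend over the ranked doses, from DMSO to 500 nM. By this test 6 of 8 subunits rose, against 8.23% of all genes. The slope of TCP1 was 0.11 per step on the log2 scale (limma adjusted p = 1.1e-05), and that of CCT6A was 0.08 (adjusted p = 1.0e-04). CCT7 and CCT8 did not pass, with adjusted p of 0.073 and 0.13. DESeq2 called the slope of CCT7 (adjusted p = 0.042), and without 0.5 nM replicate 2 both passed, with adjusted p of 0.012 and 0.014. CCT2 passed with an adjusted p of 0.014 but not without 500 nM replicate 1 (adjusted p = 0.056).

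The library 0.5 nM replicate 2 stood above the DMSO mean by an average of 0.15 on the log2 scale over the 8 subunits. Replicates 1 and 3 of that group stood 0.06 and 0.02 above it. Replicate 2 was the highest of its group for all 8 subunits, and the subunit sums of the 3 libraries were 45876, 48602 and 44714 normalized counts. Without it, the median difference of the 8 subunits at 0.5 nM was 0.032 in place of 0.079. The 500 nM libraries stood 0.27, 0.23 and 0.24 above the DMSO mean, and 50 nM replicates 0.19, 0.14 and 0.12. All 6 of these libraries showed all 8 subunits above the DMSO range.

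Because the complex holds its subunits in equal amounts, each subunit was also expressed relative to the others. The log2 ratio of each subunit to the mean of the other 7 was taken within a library, so that a shift shared by all subunits and the scaling of the library cancel. This fit was added after the uneven changes had been seen. Its ratios are not independent, since a gain of a single subunit lowers the ratios of all the others. TCP1 had ratios of -0.14, -0.18 and -0.12 with DMSO, 0.16, -0.05 and 0.05 at 50 nM and 0.08, 0.06 and 0.12 at 500 nM. Its gain on the other subunits was 0.20 at 50 nM (limma adjusted p = 0.013) and 0.23 at 500 nM (SE 0.05, limma adjusted p = 0.0016). The 50 nM gain lost its call when 50 nM replicate 1 (adjusted p = 0.092) or DMSO replicate 2 (adjusted p = 0.075) was left out. TCP1 was the single subunit to pass at 50 nM, where 6.00% of all rows of this fit passed in either direction. Only the subunit rows of this fit are ratios, and the other rows are gene levels. The share over all rows is thus one of changed levels and gives no share for ratios.

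Among the subunit mRNAs, which do not show protein or the assembled complex, that of CCT8 went the other way from TCP1. Its ratios were -0.49, -0.50 and -0.52 with DMSO and -0.64, -0.67 and -0.62 at 500 nM. It fell by 0.14 relative to the other subunits at 500 nM (SE 0.04, limma adjusted p = 0.010). TCP1 is part of the mean that CCT8 was compared with, so the gain of TCP1 adds to this fall. The fall against a mean without TCP1 was not tested. At this dose TCP1 and CCT8 were the 2 of 8 subunits that passed. Of all rows, nearly all of them gene levels, 17.7% passed in either direction. CCT6A gained 0.10 (limma adjusted p = 0.061) and CCT7 had -0.10 (limma adjusted p = 0.080), and neither passed. Without 0.5 nM replicate 2 both did, with adjusted p of 0.028 and 0.041.

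The remaining subunits, CCT2, CCT3, CCT4 and CCT5, had mean ratios at 500 nM within 0.06 of their DMSO means on the log2 scale. Their 95% intervals of the difference reached from -0.13 to 0.08 in all. The ratios of CCT2 and CCT5 still lay below those with DMSO, without overlap, at both 50 and 500 nM. At 500 nM they were -0.21, -0.21 and -0.23 for CCT2 and 0.62, 0.60 and 0.63 for CCT5, which had 0.67, 0.67 and 0.66 with DMSO. Neither change passed at 500 nM (limma adjusted p = 0.28 and 0.44). No share over all genes is at hand for such ratios, and the gain of TCP1 adds to both falls. CCT2 had its lowest ratios at 5 nM, with -0.28, -0.24 and -0.30 against -0.17, -0.14 and -0.16 with DMSO, but this change did not pass (adjusted p = 0.10). Without 0.5 nM replicate 2 it did (adjusted p = 0.041). On the slope with dose rank, 4 of 8 subunits passed in the ratio fit, where 17.5% of all rows, again nearly all gene levels, passed. TCP1 (adjusted p = 5.2e-04) and CCT6A (0.038) gained, and CCT7 (0.044) and CCT8 (0.0097) lost. These gains and losses are not separate results, because each subunit is part of the mean that the others were compared with. The slopes of CCT6A and CCT7 held in 8 and 5 of the 15 fits that left out a library. CCT6A lost its call without each of the 500 nM libraries, replicates 1 and 3 of 50 nM and replicates 1 and 3 of 0.5 nM, each left out singly, with an adjusted p of up to 0.11. CCT7 lost it without each of these, DMSO replicate 2 and replicates 2 and 3 of 5 nM, with an adjusted p of up to 0.14.

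**Figure D3:**
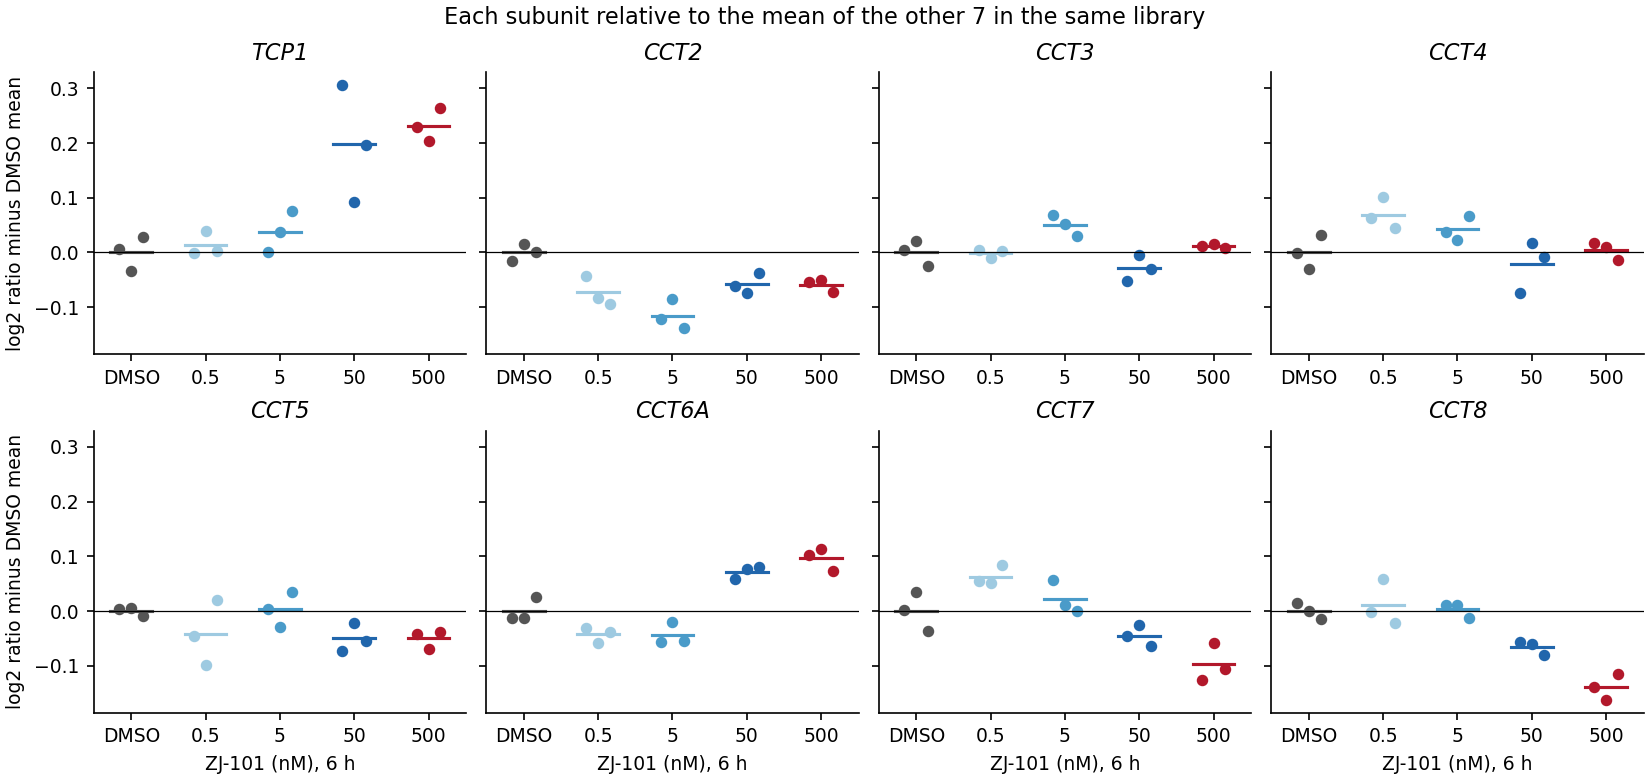
Log2 ratio of each subunit to the mean of the other 7 in the same library (vertical axis), set to 0 at the DMSO mean, by ZJ-101 dose in nM. Points are libraries and lines are group means. TCP1 and CCT6A lie above the line in all 50 and 500 nM libraries, and CCT2, CCT5, CCT7 and CCT8 lie below it in all of them.

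Levels can be compared between subunits as FPKM, here the reads on a gene per kilobase of its MANE Select transcript, scaled to the depth of the library. With DMSO the order was CCT3 (284 ± 6.4, SD, n = 3), CCT7 (249), CCT2 (186), CCT5 (179), CCT8 (156), CCT6A (155), TCP1 (153) and CCT4 (106). The libraries of CCT8 and CCT6A overlapped, as did those of CCT6A and TCP1, so these 3 cannot be ordered. At 500 nM the levels were 340 for CCT3, 279 for CCT7, 214 for CCT2, 209 for TCP1, 206 for CCT5, 195 for CCT6A, 171 for CCT8 and 126 for CCT4. At this dose the libraries of TCP1 overlapped those of CCT2 and CCT5, while those of CCT6A and CCT8 lay below them. The ratio of the highest to the lowest subunit was 2.68 with DMSO and 2.70 at 500 nM. The order depends on the length used. Over the union of all annotated exons TCP1 was the lowest with DMSO, at 73.6, and CCT8 the lowest at 500 nM, at 94.6, while CCT3 stayed the highest at 145 and 174.

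**Figure D4:**
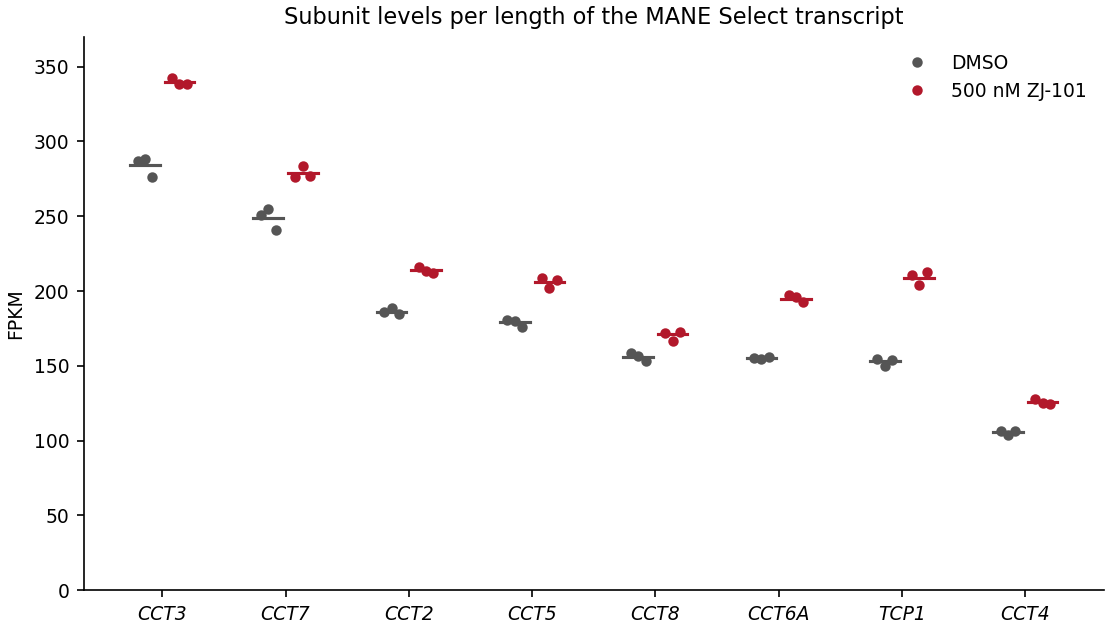
FPKM over the MANE Select transcript (vertical axis, from 0) of each subunit with DMSO and 500 nM ZJ-101, in the order of the DMSO means. Points are libraries and lines are means of 3. TCP1 is level with CCT8 and CCT6A with DMSO and with CCT2 and CCT5 at 500 nM.

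The subunit mRNAs were also compared with each other between replicates of the same dose. After the mean of each group was taken away, Pearson's r between 2 subunits over the 15 libraries ranged from 0.37 to 0.95 over the 28 pairs, with a median of 0.74. The lowest of these pairs was TCP1 with CCT5 and the highest CCT2 with CCT6A. Without 0.5 nM replicate 2 the range was 0.03 to 0.93 and the median 0.66. These values describe libraries that share depth and scaling, and they carry no test. The same values were not taken for pairs of other genes, so they are not shown to be particular to the subunits. Over the levels themselves, r of a subunit to the mean of the other 7 was lowest for CCT7 and CCT8, at 0.80 each, and highest for CCT3 and CCT6A, at 0.95 each.

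Outside the complex, the 5 tested genes whose levels over the 15 libraries were most like the mean of the subunits were CACYBP (r = 0.971), EIF5 (0.967), TPD52L2 (0.957), HSPD1 (0.955) and FKBP4 (0.952). CACYBP binds calcyclin and FKBP4 is a co-chaperone of HSP90. HSPD1 encodes the chaperonin of mitochondria, EIF5 a translation initiation factor and TPD52L2 a member of the tumor protein D52 family. All 5 rose at 500 nM, with log2 fold changes between 0.23 for EIF5 and 0.62 for HSPD1. The 15 libraries span the doses, so that a rise shared with dose enters these values of r, which carry no test.

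Lists of related genes were read beside the subunits. Of 8 tested subunits of prefoldin and its relatives, 0 passed the test at 500 nM, and their median log2 fold change was 0.02. Over all genes 7.69% rose and 10.1% fell at this dose, so a count of 0 in a list this short is close to these shares. Of 3 tested phosducin-like genes, TXNDC9 fell by 0.23 (limma adjusted p = 0.026), a call that was lost with the removal of either DMSO replicate 2, DMSO replicate 3, 500 nM replicate 1 or 500 nM replicate 3, where adjusted p reached 0.10. The other two, PDCL and PDCL3, had values of -0.19 and 0.10 and did not pass.

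Clients of the chaperonin were read in the same way. Of 12 tested tubulin and actin genes 0 rose and 1 fell, with a median of 0.01, where 10.1% of all genes fell at 500 nM. The share that fell here, and among the other clients, was thus no higher than over all genes. TUBA1A, an alpha-tubulin, fell from 1811 ± 98.9 to 1429 ± 35.7 normalized counts (SD, n = 3), a log2 fold change of -0.34 (limma adjusted p = 0.0032). The actin genes ACTB and ACTG1 each had -0.06. Of 15 other clients 1 fell, GNB2, a G protein beta subunit, by 0.18 (limma adjusted p = 0.018), a call lost without DMSO replicate 2 (adjusted p = 0.087) or 500 nM replicate 2 (adjusted p = 0.10). CDC20, a cell cycle activator that needs TRiC for folding, had 0.05 and did not pass. Of the 5 tubulin cofactors 0 passed, where 7.69% of all genes rose and 10.1% fell. The tubulin gene TUBB and the prefoldin gene PFDN6 are listed with means of 0.663 and 0.194 normalized counts over all libraries and were not tested. The counts of these lists thus leave them out. Whether the low values come from little RNA or from how reads were aligned and counted was not tested.

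The mitochondrial chaperonin genes and most of the heat-shock genes had larger log2 fold changes than the subunits. HSPD1 rose from 8842 ± 18.9 to 13560 ± 328 normalized counts (SD, n = 3), a log2 fold change of 0.62 (limma adjusted p = 1.6e-07). Its partner HSPE1 rose by 0.67 (limma adjusted p = 2.0e-04). BBS12, a chaperonin-like protein of the cilium, fell by 0.40 with an adjusted p of 0.047, but 17 of 25 alternatives lost this call, among them every fit without a DMSO library. Of 16 cytosolic heat-shock genes, a list drawn up with earlier results of these data known, 14 rose at 500 nM, with a median of 0.64, where 7.69% of all genes rose. At 50 nM 14 rose, with a median of 0.42, where 2.29% of all genes rose. HSPH1 rose by 1.45, the HSP70 gene HSPA8 by 1.24 and the HSP40 gene DNAJB1 by 1.21. The factors HSF1 and HSF2, with 0.08 and -0.17, did not pass. At 50 nM, where 2 of 8 chaperonin subunits passed, the heat-shock list thus stood at 14 of 16, and no test of that difference was made.

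**Figure D5:**
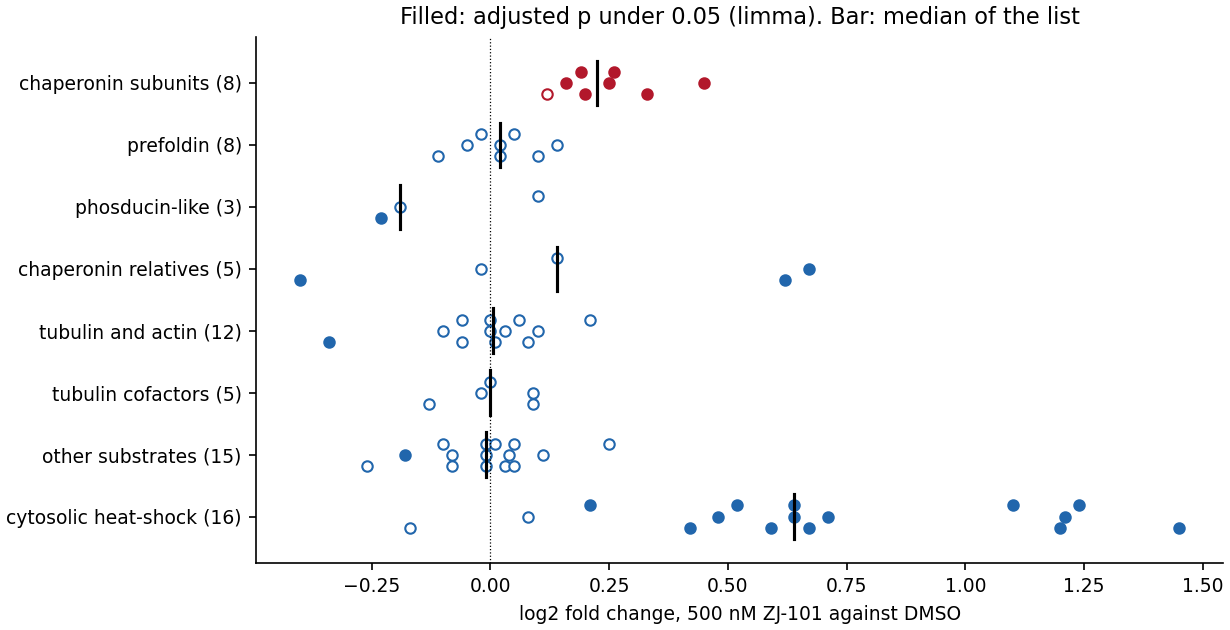
Log2 fold change at 500 nM ZJ-101 against DMSO (horizontal axis) of the 8 chaperonin subunits and of the tested genes of 7 lists (number in brackets). Filled points have an adjusted p under 0.05 by limma, and bars are medians. The subunits lie between 0.12 and 0.45, with 14 of 16 heat-shock genes past the threshold and 12 of them beyond 0.45.

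The subunits lie on 7 chromosomes, with CCT4 and CCT7 both on chromosome 2. RefSeq promoters of GRCh38.p14, from 250 bases before to 50 bases after a transcript start, were found for 7 of the 8 subunit genes and searched on both strands for short motifs. The paired heat-shock element, GAANNTTC or TTCNNGAA, was found in TCP1, CCT2 and CCT4, and in 16.2% of all 27305 genes with a promoter. The longer form with 3 repeats, GAANNTTCNNGAA or TTCNNGAANNTTC, was found in 0 of the 7 and in 0.608% of all genes. Of the heat-shock list 14 genes had a promoter, of which 8 held the pair and 5 the longer form. The matches of the subunits are shown with up to 10 bases on each side, 5′ to 3′ on the strand of the gene, since this is the motif known from heat-shock genes. Capitals mark the match. The stretches lie at chr6:159789816-159789843 on the minus strand for TCP1, chr12:69585790-69585817 on the plus strand for CCT2 and chr2:61888607-61888628 on the minus strand for CCT4.
TCP1: cgtttgaggcGAAGGTTCaacctcttcc
CCT2: ccggagcgaaGAAATTTCtagtgtggga
CCT4: cggcgccgctTTCTGGAAggtt

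In TCP1 the match begins at position -231 from the RefSeq start used here and at -130 from the outermost start that GENCODE annotates. In CCT2 it begins at -89 from the further downstream of 2 RefSeq starts. That is 374 bases after the outermost start that GENCODE annotates, and the window of the upstream RefSeq start does not reach it. In CCT4, which also has 2, it begins 38 bases after the downstream start and 53 bases after the upstream start, whose window does not reach it. None overlaps a match of the other motifs searched. The GC box GGGCGG was found in 5 of 7 subunit promoters and in 48.3% of all genes, the CCAAT box in 4 of 7 and 39.7%, and the ETS core CCGGAA in 2 of 7, CCT2 and CCT5, and 20.1%. CCT3, CCT5, CCT7 and CCT8 hold no paired heat-shock element in this window. For CCT3, CCT5 and CCT7 the window does not hold the outermost start that GENCODE annotates. That of CCT5, chr5:10250287-10250586, lies wholly after this start, which is at 10249929. The bases before the outermost start of CCT5 were thus not searched for any of these motifs. The subunits with a match had log2 fold changes of 0.45, 0.25 and 0.19 at 500 nM. Those without a match in the window searched had 0.26, 0.20, 0.16 and 0.12, so that the ranges overlap. CCT6A, with 0.33, had no promoter among those searched and is on neither side of this comparison. A match is a run of letters and shows no binding.

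TCP1 shares its upstream region with MRPL18, a gene of the mitochondrial ribosome that is read in the other direction, and 108 bases separate the annotated genes. The stretch is printed with the first 30 bases of MRPL18, within which the match to the paired motif lies. The match is thus inside the annotated MRPL18 gene, and whether it acts on either gene was not tested. The stretch reads 5′ to 3′ on the strand of TCP1, at chr6:159789704-159789841 on the minus strand, with the match in capitals.
TCP1 and MRPL18: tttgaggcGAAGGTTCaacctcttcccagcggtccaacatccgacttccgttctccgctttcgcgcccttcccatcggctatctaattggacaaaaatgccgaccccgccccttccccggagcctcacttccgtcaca

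MRPL18 was read for this position after its values had been seen. Its normalized counts were 985, 920 and 888 with DMSO, 1234, 1081 and 1094 at 50 nM and 1157, 1145 and 1150 at 500 nM. As with TCP1, all 50 and 500 nM libraries lay above the DMSO libraries and replicate 1 was the highest at 50 nM. MRPL18 rose by a log2 fold change of 0.29 at 50 nM (limma adjusted p = 0.011) and 0.31 at 500 nM (limma adjusted p = 0.0028). The 50 nM call was lost with the removal of DMSO replicate 2, DMSO replicate 3 or 50 nM replicate 1, where adjusted p reached 0.088.

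Of the 8 subunits, 5 have a protein-coding neighbour in this head-to-head arrangement with starts at most 1000 bases apart. Starts here are the outermost ones that GENCODE annotates, which can differ from the RefSeq starts used in the motif search. Of these 5 neighbours 2 rose at 500 nM, where 7.69% of all genes rose. The other one that rose was ATPSCKMT, a methyltransferase gene whose start lies 32 bases from that of CCT5, with 166, 191 and 176 normalized counts for DMSO and 221, 242 and 216 at 500 nM. Its log2 fold change was 0.35 (limma adjusted p = 0.014), a call lost without DMSO replicate 1 (adjusted p = 0.071) or 500 nM replicate 2 (adjusted p = 0.073). COMMD1 beside CCT4, PSPH beside CCT6A and PRADC1 beside CCT7 had 0.07, -0.15 and -0.09 and did not pass.

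Part of some subunit counts could come from other genes. By GENCODE release 44, 30.8% of the exon bases of CCT5 and 16.9% of those of CCT4 lie opposite antisense RNAs, and whether the counting used strand is not given in the sources used here. For TCP1 12.4% of exon bases lie in other genes, among them ACAT2 on the opposite strand, which held 530 ± 27.1 normalized counts with DMSO and 534 ± 28.9 at 500 nM (SD, n = 3). Few reads were counted on pseudogenes, of which 3 of the 13 that were listed had a mean of at least 10, CCT8P1 (49.1), CCT6P1 (26.0) and CCT6P3 (15.9). At most they reached 1.20% of the mean of their parent gene. These counts do not show how many reads match both a pseudogene and its parent.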

How the data were processed

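The authors used HISAT2 to align paired poly-A reads to hg38 and htseq-count to count reads per gene. The deposited normalized counts are a signal in which the counts of a library are divided by its DESeq2 size factor. Strand setting, versions and the number of the GENCODE release are not given in the sources used here. The members and gene lists were chosen with earlier results of these data known. Whole reads were recovered from the smallest step of each library (100.0% whole within 0.001, size factors 0.916 to 1.13), and 1 line without a gene was left out.

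Genes with a mean of at least 10 entered 1 limma fit of the 5 groups on log2(value + 1), a scale that understates changes of low genes, with a variance trend, 10 residual degrees of freedom and Benjamini-Hochberg adjustment at 0.05 over all 13561 genes. The slope on dose rank had its own fit. The ratio fit replaced the rows of the subunits by their ratios. Named genes were the 8 subunits, up to 3 rises and 3 falls per list at 500 nM, the 5 genes most correlated with the subunit mean, and pseudogenes with a mean of at least 10. Genes beside the subunits and some list members were named after their values were seen.

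Alternatives were pseudocounts of 0.5 and 5, no filter or a mean of at least 50, TMM or equal totals, the replicate number as a block, edgeR and DESeq2 on the recovered reads, an adjusted p under 0.1, each library left out, and only the groups compared. At 500 nM limma called 1043 genes higher and 1366 lower, edgeR on the recovered reads 1067 and 1365, and DESeq2 985 and 1225. Added after seeing the data were the ratio fit, its repeats, a second gene length and the same alternatives for other named genes. The test was also run on simulated data, from which no result is drawn here. Sequences came from RefSeq (GRCh38.p14) and positions from GENCODE release 44 (GRCh38). Python 3.11.15 and R 4.3.3 were used, with DESeq2 1.42.0, edgeR 4.0.16 and limma 3.58.1.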

Additional observations from a re-analysis of the deposited data

How the results depend on the processing

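TCP1 and CCT6A at 50 and 500 nM, and CCT2, CCT3, CCT4 and CCT5 at 500 nM, passed under each of the 25 alternatives fitted for every subunit, and no call changed its direction. When 1 library at a time was left out, between 0 and 1 subunits passed at 0.5 nM, between 2 and 5 at 50 nM and between 6 and 8 at 500 nM. Between 5 and 50 nM the range was 1 to 3, and between 50 and 500 nM it was 0 to 1. The largest counts belonged to the fit without 0.5 nM replicate 2 in most comparisons. CCT8 at 500 nM also passed when the DMSO and 500 nM libraries alone were fitted (adjusted p = 0.012), and the slope of CCT4 did not pass over the treated libraries alone (adjusted p = 0.13). CCT2 between 5 and 50 nM had an adjusted p of 0.052 and passed with DESeq2 (0.021), equal totals (0.030) and a mean of at least 50 (0.044). The cause was not tested.

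With the replicate block, 7 subunits passed at 500 nM, 2 at 50 nM and 6 by the slope, the same genes as without it, and CCT2 was the single added call, between 5 and 50 nM (adjusted p = 0.031). Same-numbered libraries of a dose and DMSO had correlations of their deviations between -0.09 and 0.07, and at 5 nM alone did every library correlate best with its own number, so the numbers were not taken as pairs. Neither TMM nor equal totals moved the median over all genes by more than 0.013 on the log2 scale.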
